A study of Homo sapiens with 6 samples.

Results

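The E2 ubiquitin-conjugating enzymes were taken as every row of the deposited FPKM table whose gene symbol starts with UBE2, followed by a letter and then letters or digits only. This gave 34 of 16070 listed genes, and the table describes each of the 34 as a ubiquitin conjugating enzyme E2. RNA had been sequenced in bulk from cultures of NCI-H1299, a long-used human cell line of non-small cell lung cancer. All cultures were grown in serum-containing RPMI medium, and they received either vehicle (0.1% DMSO; 3 libraries, called control here, although one label field calls them untreated) or 25 µM of 6p (3 libraries) for 48 h. The series names 6p as a derivative of platensimycin, a bacterial natural product that inhibits bacterial fatty acid synthesis. The labels call the 3 samples of a group independent without saying what was repeated (culture, day or extraction), so p-values measure only the spread between these samples. The comparison asked which E2 transcripts differed in level between the 6p and the vehicle cultures.

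E2 enzymes stand in the middle of the ubiquitin cascade. An E1 enzyme activates ubiquitin, the E2 carries it as a thioester on a catalytic cysteine, and an E3 ligase brings the loaded E2 to the substrate. The choice of E2 does much to set which lysine of ubiquitin a chain grows through, and so whether the substrate goes to the proteasome or is marked for signalling or repair. A few E2s carry ubiquitin-like proteins instead: UBE2M and UBE2F carry NEDD8, and UBE2L6 carries ISG15. UBE2V1 and UBE2V2 lack the catalytic cysteine and work only beside UBE2N.

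Of the 34 genes, 31 reached a mean of 0.5 FPKM (fragments scaled to gene length and library total) and were tested. Control means of the tested genes ran from 1.28 FPKM for UBE2E2 to 139 FPKM for UBE2C, and 9 genes were above 50 FPKM. Levels of different genes rest on the lengths in the authors' values. For UBE2E2 that length is 21637 nt, against 3274 exon bases in GENCODE release 29, and its 498 to 738 fragments per library exceed the 28 to 63 of UBE2E1, so its lowest rank rests on the length. The other 3 were close to 0. UBE2U had a single fragment in 1 of 6 libraries, UBE2L5 had 2 to 8 fragments per library and UBE2V1 had 5 to 16. In GENCODE release 29, 42.9% of the exon bases of UBE2V1 are shared with the readthrough gene TMEM189-UBE2V1 on the same strand, and the rule for counting shared reads, a step not given in the sources used here, could put its reads elsewhere, so its value is not a measure of its level. The tested genes rested on 28 to 6783 fragments each per library, from totals of 16775655 to 19957335. The 6 most abundant genes in control (UBE2C, UBE2S, UBE2M, UBE2Z, UBE2L3 and UBE2D3) held 45.0% of the summed E2 FPKM there and 43.1% in 6p. Neighbours in the order of levels, such as UBE2M at 75.4 ± 8.21 and UBE2Z at 74.5 ± 4.16 FPKM (mean ± SD, n = 3, as for all FPKM pairs below), were often within their spread.

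**Figure D1:**
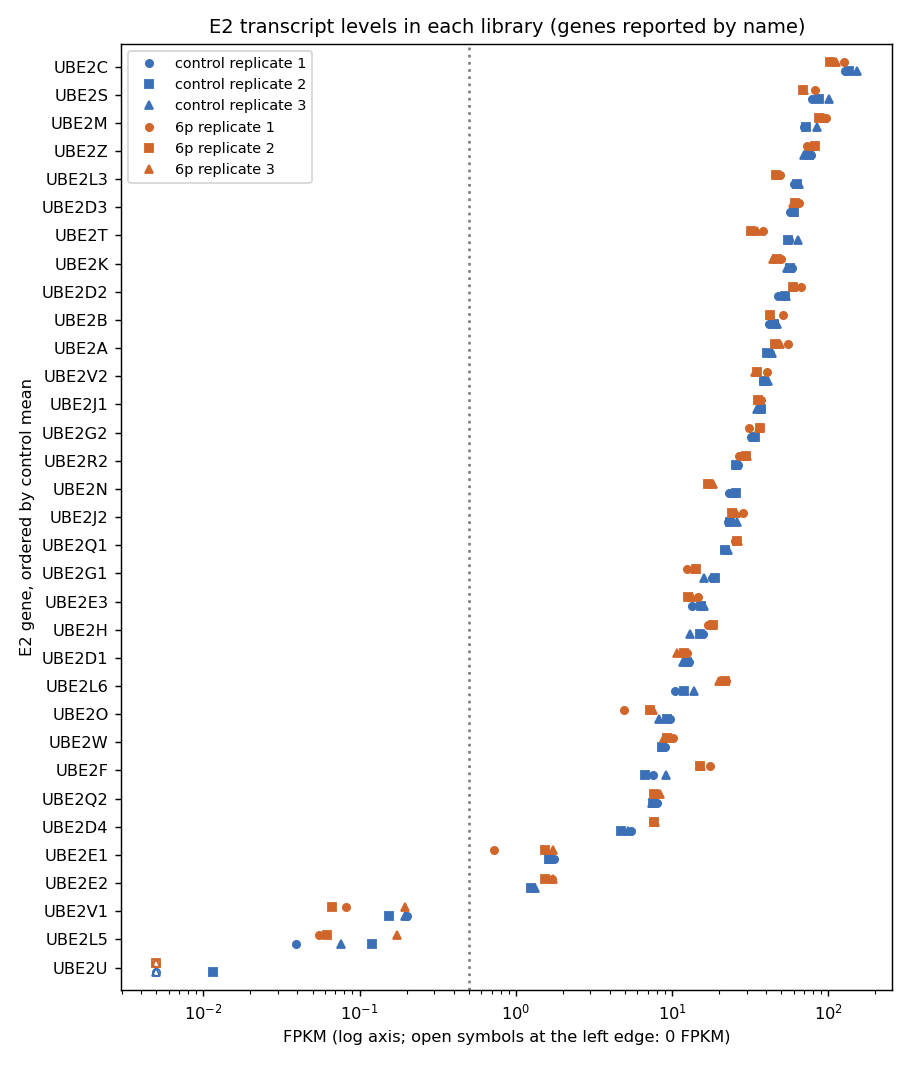
FPKM of the E2 genes reported by name, in every library, on a log axis, ordered by the control mean; blue marks are control, orange marks 6p, and the dotted line is the 0.5 FPKM minimum for testing. Most genes sit between 5 and 140 FPKM with the groups close together, and UBE2V1, UBE2L5 and UBE2U sit left of the line.

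The libraries differed by more than their group. Control replicate 3 and 6p replicate 1, the length-shifted libraries named below, read short genes higher and long genes lower than the rest of their own group (Spearman's rho over genes with gene length -0.677 and -0.517; 0.362 to 0.645 in the other 4 libraries). The change of 6p against control ran with length too, with medians on the log2 scale of 0.25 for the shortest and -0.22 for the longest of 10 equal bins of length. E2 genes were of ordinary length (median 3894 nt for those tested, against 3904 nt over the whole tested set). Fits without both length-shifted libraries leave 2 per group and take out spread seen in these same data. Their adjusted p can therefore be too small and are descriptive only. As markers of the line, KRT18 and VIM stood at 596 and 2827 FPKM in control, while EPCAM was at 0.114 FPKM and CDH1 was not analysed here. Markers of blood, endothelial, fibroblast and liver cells (PTPRC, PECAM1, VWF, COL1A1, COL3A1 and ALB) had means of at most 0.279 FPKM in either group.

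After 6p the E2 genes moved in both directions and by modest amounts. Of the 31 tested, 8 rose and 6 fell at adjusted p under 0.05 in limma, and 17 did not pass. That is 45.2% changed, near the 46.5% of all 11745 tested genes (21.3% higher and 25.1% lower). The median log2 fold change was 0.06 for the E2 genes and -0.04 for all tested genes, and 0 of the 31 reached 2-fold on the log2(FPKM + 1) scale. The risers were UBE2F, UBE2L6, UBE2D4, UBE2M, UBE2D2, UBE2H, UBE2Q1 and UBE2E2, and the fallers UBE2T, UBE2N, UBE2O, UBE2L3, UBE2G1 and UBE2K. In 17 of the 31 (54.8%) the FPKM values of the groups did not overlap, against 57.5% of all tested genes. The summed E2 FPKM was 1114 ± 44.9 in control and 1084 ± 46.0 in 6p, with overlapping groups. The sum of FPKM over all listed genes was higher in 6p (430970 ± 24560 against 380630 ± 22639), so the E2 share of all FPKM went from 0.293% ± 0.00561 to 0.252% ± 0.00393 with no overlap. Rescaling to TPM, which divides by that sum, moved the median of all tested genes to -0.21 and that of the E2 genes to -0.12. Then 3 E2 genes were higher and 10 lower, against 1526 higher and 3991 lower of all 11745 tested genes.

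**Figure D2:**
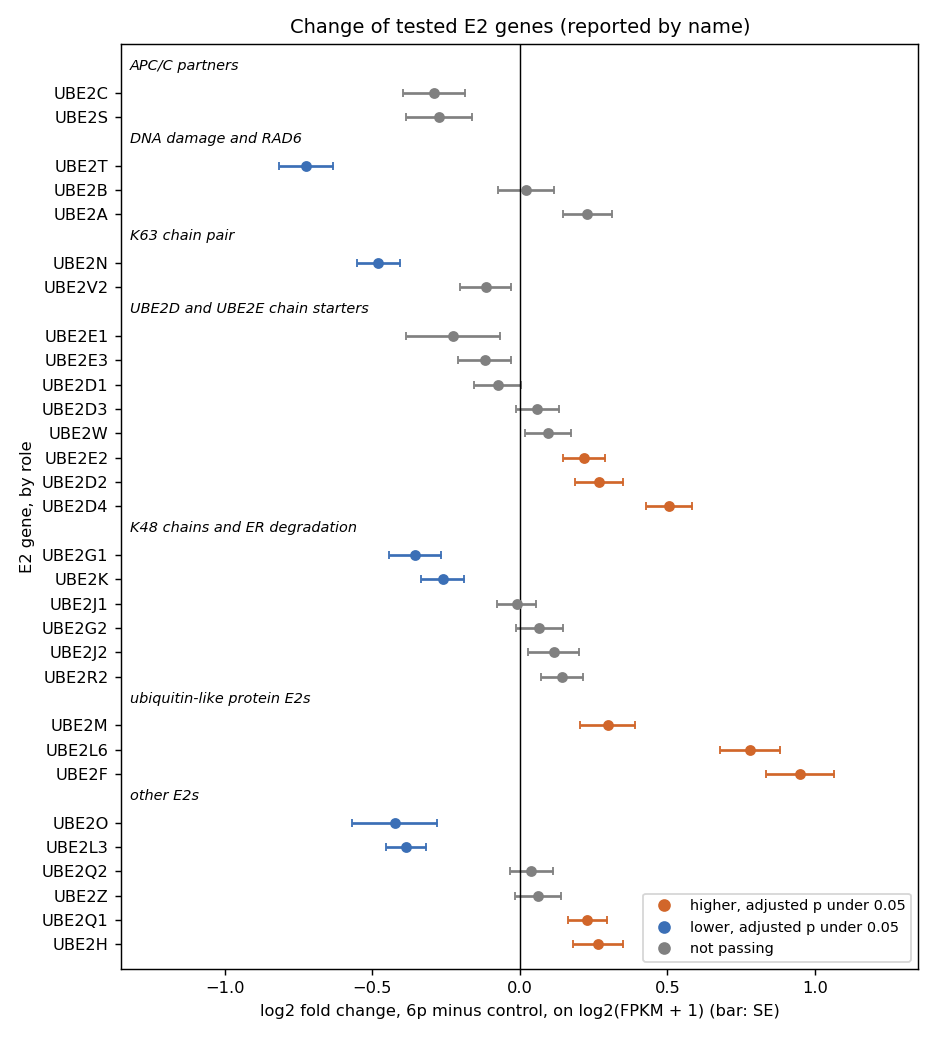
Log2 fold change of 6p minus control on log2(FPKM + 1) with its SE for the tested E2 genes reported by name, grouped by role; orange passed as higher, blue as lower, grey did not pass. The points run from UBE2T at -0.72 to UBE2F at 0.95, and UBE2M, UBE2L6 and UBE2F are orange.

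Of the E2s for ubiquitin-like proteins, 3 of 4 rose and 0 fell, and they included the 2 E2 genes with the highest fold changes. With the length trend removed 2 of the 4 were higher, and as TPM also 2. These genes are short (median 1782.5 nt), and 21.3% of all tested genes rose as deposited. Of all 11745 tested genes, 2992 were higher with the length trend removed and 1526 as TPM. UBE2F, which loads NEDD8 for CUL5 ligases together with the RING protein RNF7, stood at 7.56, 6.67 and 9.20 FPKM in control replicates 1 to 3 and at 17.5, 15.0 and 15.3 FPKM in 6p replicates 1 to 3. Every 6p library was thus well above every control library. Its mean rose from 7.81 ± 1.28 to 15.9 ± 1.32 FPKM, 2.04 times the control mean and a log2 fold change on log2(FPKM + 1) of 0.95 ± 0.11 (SE, as for all fold changes below; adjusted p = 0.000511 in limma, as for all adjusted p below). In GENCODE release 29, 16.2% of the exon bases of UBE2F are shared with the readthrough gene UBE2F-SCLY. UBE2L6, the E2 of ISG15 and known as an interferon-induced gene, was at 10.5, 11.9 and 13.8 FPKM in the control libraries and at 22.2, 21.9 and 19.99 FPKM in the 6p libraries. Control replicate 3 was the highest control and still below all 6p libraries. The mean of UBE2L6 rose from 12.1 ± 1.65 to 21.4 ± 1.21 FPKM (0.78 ± 0.10, adjusted p = 0.000716).

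The partners of these enzymes gave mixed values. ISG15 itself had means of 53.5 ± 11.1 (control) and 65.8 ± 13.7 FPKM (6p, adjusted p = 0.194). It passed as higher without control replicate 3 (0.46, adjusted p = 0.0456) and without both length-shifted libraries (0.30, adjusted p = 0.000305). UBA7, the ISG15-activating E1, was below the minimum for testing in both groups. RNF7, the RING partner of UBE2F, rose from 26.5 ± 2.63 to 38.2 ± 4.25 FPKM (0.51 ± 0.10, adjusted p = 0.00519), whereas CUL5 was 10.5 ± 0.990 and 10.3 ± 0.351 FPKM (adjusted p = 0.883). RBX1, the RING partner of UBE2M, was 37.7 ± 5.27 and 35.5 ± 5.31 FPKM (adjusted p = 0.608). It passed as lower with the length trend removed (-0.34, adjusted p = 0.00236).

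UBE2M, which loads NEDD8 on the other cullins, was at 69.9, 71.5 and 84.9 FPKM in control and at 96.5, 87.6 and 93.9 FPKM in 6p. Its lowest 6p library lay just above its highest control library. It rose by 0.30 ± 0.09 (adjusted p = 0.0315), and this short transcript (1159 nt) did not pass once each library's trend with gene length was removed (0.05, adjusted p = 0.492) or after rescaling to TPM (0.12, adjusted p = 0.148). Leaving out 1 library ended the UBE2M call for control replicate 1 (adjusted p = 0.11), control replicate 2 (0.128), 6p replicate 1 (0.0641) and 6p replicate 3 (0.0922). Within a library UBE2M exceeded UBE2F by a ratio of 9.73 ± 0.861 in control and 5.83 ± 0.297 in 6p, with no overlap.

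**Figure D3:**
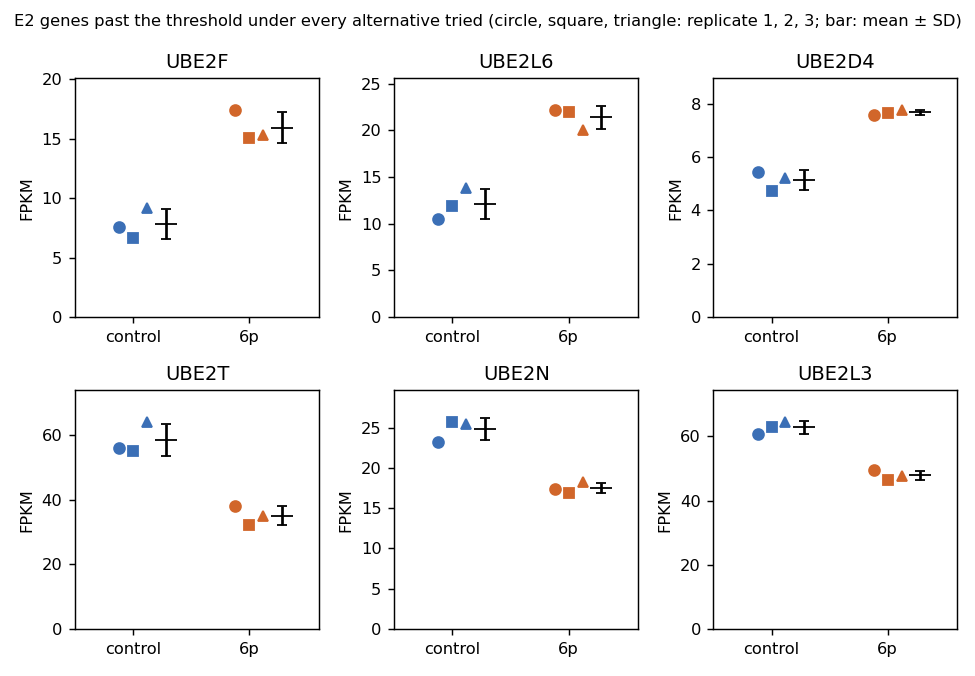
FPKM of UBE2F, UBE2L6, UBE2D4, UBE2T, UBE2N and UBE2L3 in each library, with the mean and SD of 3 libraries beside each group; axes start at 0. In all 6 panels the control and 6p libraries do not overlap, with the upper row higher and the lower row lower in 6p.

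UBE2T had the lowest fold change of the family. It is the E2 with which the Fanconi anemia ligase FANCL attaches a single ubiquitin to FANCD2 and FANCI at DNA crosslinks. In control replicates 1 to 3 it stood at 56.0, 55.2 and 64.2 FPKM and in the 6p replicates at 38.0, 32.2 and 34.8 FPKM. All 6p libraries lay below all control libraries. The mean fell from 58.4 ± 4.98 to 35.0 ± 2.93 FPKM (-0.72 ± 0.09, adjusted p = 0.000634). UBE2T is the shortest E2 transcript here (882 nt), and removal of the trend with length took its log2 fold change to -1.03 (adjusted p = 1.13e-06). FANCL had means of 17.0 ± 1.19 (control) and 15.0 ± 1.85 FPKM (6p, adjusted p = 0.187). It passed as lower with the length trend removed (-0.28, adjusted p = 0.0154) and as TPM (-0.35, adjusted p = 0.0132). It also passed without 6p replicate 1 (-0.26, adjusted p = 0.0381) and without both length-shifted libraries (-0.21, adjusted p = 0.00897). RNA came from whole cultures, so fewer cells of a kind and less RNA per cell cannot be told apart.

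UBE2A and UBE2B, the near-identical human RAD6 proteins that work with RAD18 at stalled replication forks and with RNF20 and RNF40 on histone H2B, did not pass. UBE2A had means of 42.2 ± 1.32 (control) and 49.8 ± 4.69 FPKM (6p; 0.23 ± 0.08, adjusted p = 0.0533). Its groups did not overlap, and it passed as higher without 6p replicate 2 (0.29, adjusted p = 0.0424), with upper-quartile scaling (0.26, adjusted p = 0.0451) and with quantile normalization (0.24, adjusted p = 0.0256) and without both length-shifted libraries (0.18, adjusted p = 0.00675), and not with the length trend removed (0.07, adjusted p = 0.361). UBE2B was 44.6 ± 2.60 and 45.4 ± 5.07 FPKM (0.02 ± 0.09, adjusted p = 0.866).

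Stretches upstream of 4 changed E2 genes with a log2 fold change of at least 0.3 in either direction are shown. These are the ones for which RefSeq (GRCh38.p14) gives a start with at least 200 of the 250 preceding bases outside annotated same-strand exons. Exons of the opposite strand were not checked in choosing these stretches. They come from the gene's own strand, 5′ to 3′, at chr1:202341981-202342186 (minus strand) for UBE2T, chr22:21549197-21549446 (plus) for UBE2L3, chr17:4366676-4366925 (minus) for UBE2G1 and chr7:43926186-43926435 (plus) for UBE2D4. Capitals mark CCAAT, the box bound by NF-Y, and TTTGAA, the core of the cell cycle homology region found in many promoters of genes of cell division, on either strand.
UBE2T (fell): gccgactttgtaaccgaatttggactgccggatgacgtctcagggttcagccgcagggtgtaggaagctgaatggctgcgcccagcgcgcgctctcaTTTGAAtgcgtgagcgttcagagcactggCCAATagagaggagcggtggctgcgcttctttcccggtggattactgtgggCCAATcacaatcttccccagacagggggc
UBE2L3 (fell): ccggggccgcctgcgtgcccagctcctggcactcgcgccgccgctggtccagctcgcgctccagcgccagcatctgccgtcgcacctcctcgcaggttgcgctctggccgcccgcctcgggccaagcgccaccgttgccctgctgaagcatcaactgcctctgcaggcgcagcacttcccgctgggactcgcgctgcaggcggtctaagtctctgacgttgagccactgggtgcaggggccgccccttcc
UBE2G1 (fell): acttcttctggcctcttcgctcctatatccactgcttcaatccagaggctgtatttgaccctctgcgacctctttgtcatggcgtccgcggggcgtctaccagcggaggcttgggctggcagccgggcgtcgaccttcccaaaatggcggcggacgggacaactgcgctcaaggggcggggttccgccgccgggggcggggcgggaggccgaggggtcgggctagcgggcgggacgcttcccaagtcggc
UBE2D4 (rose): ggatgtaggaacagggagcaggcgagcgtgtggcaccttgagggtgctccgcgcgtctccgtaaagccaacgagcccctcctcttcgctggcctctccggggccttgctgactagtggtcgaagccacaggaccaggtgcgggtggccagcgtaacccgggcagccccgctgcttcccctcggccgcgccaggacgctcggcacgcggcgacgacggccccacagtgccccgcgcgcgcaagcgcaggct
The UBE2T stretch held 2 CCAAT boxes, 124 and 73 bases before the RefSeq start, and 1 TTTGAA, 153 bases before it. The other 3 stretches held neither. Over the 250 bases before all 35116 starts in the table, 32.0% held CCAAT and 13.3% held TTTGAA. Among the 38 starts listed for 26 of the 34 E2 genes, 11 held CCAAT and 3 held TTTGAA, those of UBE2T, UBE2F and UBE2U. The core of the interferon-stimulated response element was in 3.0% of all windows and in 1 E2 window, at a UBE2D3 start, and the ATF4 and CHOP core TGATGNAA in 3.1% of all windows and 0 E2 windows. Both were searched on either strand, and a match of letters is a description only.

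The enzyme of K63-linked chains fell. UBE2N, which builds these signalling and repair chains as a heterodimer with UBE2V1 or UBE2V2, was at 23.2, 25.8 and 25.4 FPKM in control and at 17.4, 16.9 and 18.2 FPKM in 6p. The groups were separate, and the mean fell from 24.8 ± 1.39 to 17.5 ± 0.680 FPKM (-0.48 ± 0.07, adjusted p = 0.0015). In GENCODE release 29 exons of genes on the opposite strand cover 39.5% of the exon bases of UBE2N. The libraries were made with a stranded kit, per the labels' protocols, and use of strand in counting is a detail not given in the sources used here. Its partner UBE2V2 was at 38.3, 39.0 and 41.4 FPKM in control and at 40.7, 34.8 and 34.1 FPKM in 6p. Here 6p replicate 1 lay within the controls and the other 6p libraries below them (-0.12 ± 0.09, adjusted p = 0.294). UBE2V2 passed as lower in TPM (-0.30, adjusted p = 0.00963), without 6p replicate 1 (-0.19, adjusted p = 0.0447) and without both length-shifted libraries (-0.16, adjusted p = 0.00814). UBE2V2 divided by UBE2N was 1.598 ± 0.0729 in control and 2.09 ± 0.236 in 6p, with no overlap.

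Among the UBE2D and UBE2E enzymes and UBE2W, which place the first ubiquitin on substrates for many ligases, 3 of 8 rose and 0 fell. With the length trend removed these counts were 4 and 0, and as TPM 1 and 1. Of all tested genes 21.3% rose and 25.1% fell as deposited. Of the 11745, 2992 were higher and 3275 lower with the length trend removed, and 1526 and 3991 as TPM. UBE2D4 stood at 5.45, 4.71 and 5.199 FPKM in control and at 7.59, 7.65 and 7.77 FPKM in 6p. The 6p libraries were close together and all above the controls, and its mean rose from 5.12 ± 0.373 to 7.67 ± 0.0943 FPKM (0.50 ± 0.08, adjusted p = 0.00149). The paralog UBE2D2 was at 47.9, 52.7 and 53.7 FPKM in control and at 67.2, 59.5 and 59.9 FPKM in 6p, again without overlap. It rose by 0.27 ± 0.08 (adjusted p = 0.0281). UBE2D2 did not pass when control replicate 1 (adjusted p = 0.103), control replicate 2 (0.0791) or 6p replicate 3 (0.0585) was left out, or after rescaling to TPM (0.09, adjusted p = 0.23).

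The other 2 paralogs overlapped between groups. UBE2D3, the most abundant of the 4 in control, was at 57.0, 60.7 and 60.4 FPKM in control and at 65.2, 61.1 and 59.5 in 6p (0.06 ± 0.07, adjusted p = 0.518). In 6p UBE2D2 and UBE2D3 were level, with means of 62.2 and 61.9 FPKM. UBE2D1 was at 12.8, 12.5 and 11.7 FPKM in control and at 12.5, 11.8 and 10.7 in 6p (-0.08 ± 0.08, adjusted p = 0.465), and passed as lower without both length-shifted libraries (-0.16, adjusted p = 0.0462). Of the summed UBE2D FPKM, UBE2D2 made up 40.1% ± 1.09 in control and 43.3% ± 0.790 in 6p, UBE2D3 46.3% ± 0.178 and 43.2% ± 0.405, UBE2D4 3.997% ± 0.407 and 5.36% ± 0.343, and UBE2D1 9.64% ± 0.748 and 8.14% ± 0.339. The groups did not overlap in any of these shares, which depend on one another. UBE2D genes are close paralogs with processed copies in the genome, so reads may have been split between them.

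The UBE2E genes were low or unmoved by the test. UBE2E2 rose from 1.28 ± 0.0382 to 1.66 ± 0.0995 FPKM (0.22 ± 0.07, adjusted p = 0.0353). This call was lost as TPM (0.15, adjusted p = 0.286) and without any single library except control replicate 3, at adjusted p of 0.0512 to 0.125, and the change was 0.51 with the length trend removed (adjusted p = 0.00672), where its recovered length of 21637 nt is the longest of the family. UBE2E1 was at 1.77, 1.64 and 1.63 FPKM in control and at 0.730, 1.53 and 1.74 FPKM in 6p (adjusted p = 0.268). The low value was that of 6p replicate 1, with 28 fragments against 52 and 56 in the other 6p libraries, and without it the log2 fold change went from -0.23 to -0.02. UBE2E3 was 14.9 ± 1.34 and 13.6 ± 1.00 FPKM (adjusted p = 0.305) and as TPM passed as lower (-0.30, adjusted p = 0.0232). UBE2W was 8.74 ± 0.246 and 9.42 ± 0.686 FPKM (adjusted p = 0.333) and passed as higher with the length trend removed (0.29, adjusted p = 0.0357).

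Of the 6 E2s of K48-linked chains and of degradation at the endoplasmic reticulum, 0 rose and 2 fell. With the length trend removed these counts were 1 and 1, and as TPM 0 and 2. The shares of all tested genes were 21.3% higher and 25.1% lower as deposited. Of the 11745, 2992 were higher and 3275 lower with the length trend removed, and 1526 and 3991 as TPM. UBE2G1, which extends degradation chains for cullin ligases, was at 18.0, 19.0 and 15.9 FPKM in control and at 12.5, 14.2 and 13.9 FPKM in 6p. Control replicate 3 was the control nearest to the 6p libraries. The mean fell from 17.6 ± 1.56 to 13.6 ± 0.882 FPKM (-0.35 ± 0.09, adjusted p = 0.0126), and the call was lost without control replicate 2 (-0.30, adjusted p = 0.0634). As TPM UBE2G1 changed by -0.54 and UBE2K by -0.44, both past the threshold. UBE2K, which builds K48-linked chains, fell from 56.5 ± 1.99 to 47.0 ± 2.69 FPKM (-0.26 ± 0.07, adjusted p = 0.0201). It did not pass with the length trend removed (-0.17, adjusted p = 0.0812), with median recentring (-0.20, adjusted p = 0.104), or when any of control replicate 1 (0.0736), control replicate 2 (0.0821), 6p replicate 2 (0.0599) and 6p replicate 3 (0.0866) was left out.

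The membrane-anchored E2s of endoplasmic reticulum degradation did not pass. UBE2J1 had means of 36.4 ± 1.01 (control) and 36.1 ± 0.797 FPKM (6p; -0.01 ± 0.06, adjusted p = 0.897), and UBE2J2 was 24.1 ± 1.81 and 26.2 ± 2.11 FPKM (adjusted p = 0.305). UBE2G2, an E2 of the same degradation route, was 33.0 ± 0.820 and 34.7 ± 2.96 FPKM (adjusted p = 0.52) and passed as higher without both length-shifted libraries (0.14, adjusted p = 0.0256). UBE2G2 divided by UBE2G1 was 1.88 ± 0.164 in control and 2.56 ± 0.0543 in 6p, with no overlap. UBE2R2, a CDC34 paralog, was 26.1 ± 0.374 and 28.9 ± 1.76 FPKM (0.14 ± 0.07, adjusted p = 0.128). It passed as higher with median recentring (0.20, adjusted p = 0.0471), with the length trend removed (0.21, adjusted p = 0.0107), without 6p replicate 1 (0.19, adjusted p = 0.0333) and without both length-shifted libraries (0.19, adjusted p = 0.00372). CDC34 itself, which the symbol rule leaves out, rose from 83.8 ± 7.43 to 114 ± 8.38 FPKM (0.44 ± 0.09, adjusted p = 0.0064).

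The partners of the anaphase-promoting complex (APC/C), UBE2C and UBE2S, were the 2 most abundant E2 transcripts in control, and neither passed. UBE2C, which starts chains on mitotic cyclins, was at 128, 136 and 154 FPKM in control and at 126, 103 and 112 FPKM in 6p. All 6p libraries lay below all controls, though 6p replicate 1 lay close to control replicate 1 (-0.29 ± 0.10, adjusted p = 0.0508). UBE2C passed as lower with the length trend removed (-0.53, adjusted p = 1.51e-05), as TPM (-0.47, adjusted p = 0.00117), with quantile normalization (-0.35, adjusted p = 0.00265), with limma's plain moderation, neither trend nor robust (-0.29, adjusted p = 0.0478), without 6p replicate 1 (-0.37, adjusted p = 0.0203) and without both length-shifted libraries (-0.30, adjusted p = 0.000182). UBE2S, which extends those chains, was at 79.0, 86.9 and 101 FPKM in control and at 81.7, 68.6 and 69.8 FPKM in 6p. Control replicate 1 and 6p replicate 1 overlapped (-0.27 ± 0.11, adjusted p = 0.0759). Without 6p replicate 1 it passed as lower (-0.35, adjusted p = 0.0345), as it did in TPM (-0.45, adjusted p = 0.0023) and under quantile normalization (-0.31, adjusted p = 0.00946). Without both length-shifted libraries it also passed (-0.26, adjusted p = 0.000568). UBE2S divided by UBE2C was 0.638 ± 0.0223 in control and 0.645 ± 0.0208 in 6p, with overlapping groups.

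The remaining E2s split, with 2 of 6 tested higher and 2 lower, against 21.3% and 25.1% of all tested genes. As TPM these counts were 0 and 2, against 1526 and 3991 of all 11745 tested genes. UBE2L3, which serves HECT and RBR ligases such as parkin and the linear chain complex, stood at 60.8, 63.1 and 64.7 FPKM in control and at 49.5, 46.5 and 47.7 FPKM in 6p. The groups were separate by a wide margin for their spread, and the mean fell from 62.8 ± 1.96 to 47.9 ± 1.48 FPKM (-0.38 ± 0.07, adjusted p = 0.00284). UBE2L3 divided by its paralog UBE2L6 was 5.25 ± 0.546 in control and 2.25 ± 0.135 in 6p, with no overlap. UBE2O, a large enzyme that acts as both E2 and E3 on orphan proteins, was at 9.65, 9.27 and 8.22 FPKM in control and at 4.91, 7.24 and 7.56 FPKM in 6p. Its lowest value was that of 6p replicate 1 (-0.42 ± 0.14, adjusted p = 0.0405), and without that library the change was -0.26 (adjusted p = 0.0466). The call of UBE2O was lost without control replicate 1 (adjusted p = 0.118) or control replicate 2 (0.112), with no filter on low genes (0.0755) and with a replicate block (0.0853).

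UBE2H, the E2 of the CTLH ligase, rose from 14.6 ± 1.39 to 17.7 ± 0.671 FPKM (0.27 ± 0.09, adjusted p = 0.034), and UBE2Q1 rose from 22.0 ± 0.625 to 25.9 ± 0.708 FPKM (0.23 ± 0.07, adjusted p = 0.0222). After rescaling to TPM these changes were 0.10 and 0.06 and did not pass (adjusted p = 0.541 and 0.588). Leaving out 1 library ended the UBE2H call for control replicate 2 (adjusted p = 0.082), control replicate 3 (0.0621), 6p replicate 2 (0.103) and 6p replicate 3 (0.0898). For UBE2Q1 these were control replicate 1 (adjusted p = 0.0773), control replicate 2 (0.0988), 6p replicate 2 (0.0684) and 6p replicate 3 (0.0875). UBE2Z, which takes ubiquitin from the E1 UBA6, had means of 74.5 ± 4.16 (control) and 77.8 ± 4.38 FPKM (6p; adjusted p = 0.544). UBA6 fell from 7.35 ± 1.02 to 5.21 ± 0.0623 FPKM (-0.42 ± 0.10, adjusted p = 0.0107), and UBE2Z divided by UBA6 was 10.2 ± 0.924 and 15.0 ± 1.00. UBE2Q2 was 7.70 ± 0.270 and 7.94 ± 0.333 FPKM (adjusted p = 0.68).

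Ratios and shares within a library are given without a test, since 3 libraries against 3 cannot give an exact two-sided permutation p below 0.1. Of the 14 changed E2 genes, 6 kept their call in each of the 20 alternatives run: UBE2F, UBE2L6, UBE2D4, UBE2T, UBE2N and UBE2L3. Their highest adjusted p over those alternatives was 0.0268. In GENCODE release 29 (GRCh38) these protein-coding genes lie at chr2:237966827-238042782 (UBE2F, plus strand), chr11:57551656-57568284 (UBE2L6, minus), chr7:43926438-43956136 (UBE2D4, plus), chr1:202331657-202341980 (UBE2T, minus), chr12:93405673-93442262 (UBE2N, minus) and chr22:21549447-21624034 (UBE2L3, plus). None of the 14 changed sign in any of them, a count of 0. Another 9 of the 17 genes that did not pass did so in at least 1 alternative, and 8 in none. How many of all 5457 changed genes kept their call in every alternative is not given here. Whether 6 of 14 is more or less than usual is therefore not known.

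**Figure D4:**
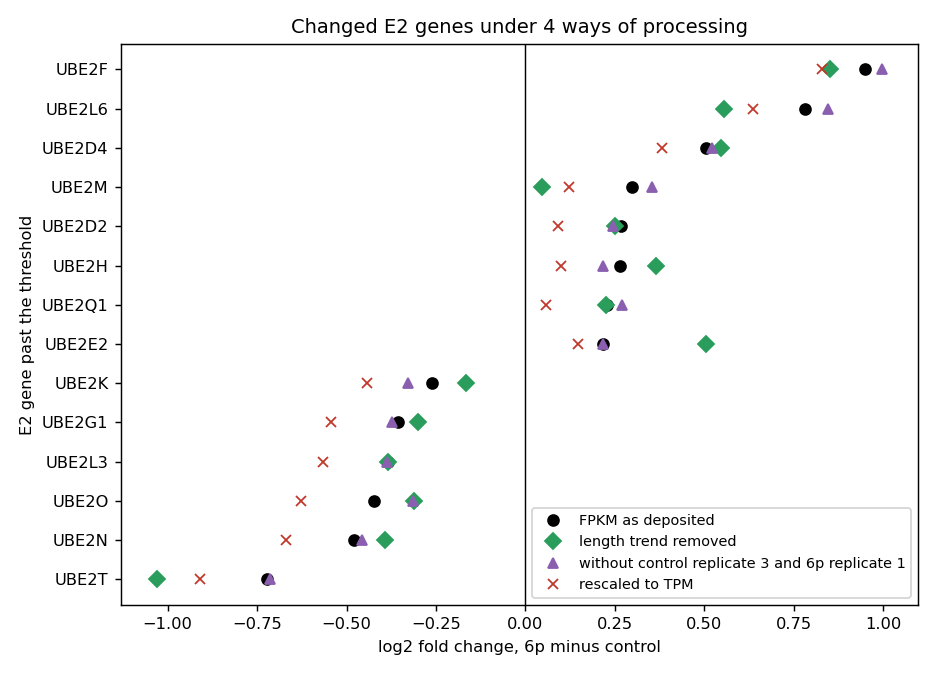
Log2 fold change of 6p minus control for the 14 changed E2 genes with FPKM as deposited (circles), with the length trend removed (diamonds), without control replicate 3 and 6p replicate 1 (triangles) and rescaled to TPM (crosses). Every gene keeps its side of 0, while UBE2M goes from 0.30 to 0.05 with the length trend removed and UBE2T from -0.72 to -1.03.

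Around the E2s, 151 other genes of ubiquitin and ubiquitin-like conjugation were tested, from lists drawn up by known role. Of these, 25 rose and 42 fell, 44.4% in all against 46.5% of all tested genes, with a median log2 fold change of -0.05. The split moved with scaling: 37 were higher and 41 lower with the length trend removed, and 13 higher and 55 lower as TPM. Over all tested genes these were 2992 and 3275, and 1526 and 3991. As TPM the higher and lower counts were 1 and 5 for the E1 enzymes, 3 and 2 for E2s named outside the UBE2 scheme, 1 and 10 for the APC/C list, 0 and 12 for the E3 partners of UBE2T, UBE2N and the RAD6 pair, and 0 and 1 for the endoplasmic reticulum list. They were 1 and 5 for the cullin and NEDD8 list, 1 and 3 for SUMO, 3 and 11 for the RBR and HECT ligases and 1 and 4 for CTLH. Among E1 enzymes 1 of 9 rose and 2 fell, against 21.3% and 25.1% of all tested genes, the shares for each list as deposited. ATG7, the E1 of autophagy conjugation, rose from 6.97 ± 0.228 to 10.2 ± 0.486 FPKM (0.49 ± 0.07, adjusted p = 0.00129), and UBA1, the main ubiquitin E1, fell from 69.2 ± 2.63 to 54.7 ± 5.71 FPKM (-0.34 ± 0.09, adjusted p = 0.0171). The second faller was UBA6. With the length trend removed UBA1 changed by -0.16 and UBA6 by -0.21, both still past the threshold. The UBA1 call was lost without control replicate 1 (adjusted p = 0.0559) or control replicate 2 (0.0734), and that of UBA6 without control replicate 2 (0.0512). Of E2 and E2-like genes named outside the UBE2 scheme, 5 of 8 rose and 1 fell. The catalytically inactive E2 variants AKTIP and TSG101, the latter a sorting factor of the endosome, rose by 0.51 ± 0.09 and 0.47 ± 0.09, and BIRC6, a giant E2 and E3 that restrains apoptosis, fell by 0.64 ± 0.18 on the log2 scale (adjusted p = 0.0188). BIRC6 changed by -0.36 with the length trend removed, and its call was lost without control replicate 1 (adjusted p = 0.0566), control replicate 2 (0.0649) or 6p replicate 1 (0.0553). With the length trend removed TSG101 changed by 0.28 and CDC34 by 0.29, and as TPM by 0.30 and 0.26, all past the threshold.

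Genes of ubiquitin and its relatives gave 5 higher and 1 lower of 12. Over all tested genes 21.3% were higher and 25.1% lower, 46.5% in all. As TPM 2 were higher and 2 lower, and with the length trend removed 5 and 2, where the median went from 0.30 to 0.08. RPS27A, which encodes ubiquitin fused to a ribosomal protein, rose by 0.69 ± 0.18 (adjusted p = 0.0161), UFM1 rose by 0.41 ± 0.07 and SUMO3 changed by -0.29 ± 0.08. RPS27A changed by 0.42 with the length trend removed and by 0.31 with quantile normalization, and its call was lost without control replicate 1 (adjusted p = 0.0594) or control replicate 2 (0.0661). UFM1 did not pass as TPM (0.25, adjusted p = 0.0564). SUMO3 did not pass with median recentring (adjusted p = 0.112) or without control replicate 2 (0.0735), 6p replicate 2 (0.0556) or 6p replicate 3 (0.0632), and changed by -0.43 with the length trend removed and by -0.47 as TPM. Of the 17 APC/C subunits and regulators, 2 rose and 8 fell, 58.8% in all against 46.5% of all tested genes. FBXO5, which encodes the APC/C inhibitor EMI1, fell from 42.8 ± 2.80 to 20.1 ± 1.02 FPKM (-1.06 ± 0.08, adjusted p = 5.68e-05). CDC20, an APC/C activator, fell from 231 ± 7.99 to 152 ± 9.53 FPKM (-0.60 ± 0.08, adjusted p = 0.000989), the subunit CDC27 fell by 0.57 ± 0.10 on the log2 scale, and the subunit ANAPC16 rose by 0.73 ± 0.11. Among E3 partners of UBE2T, UBE2N and the RAD6 pair, 1 of 19 rose and 10 fell, with a median of -0.29. In all 57.9% changed, against the same 46.5%. These genes are long, with a median of 5505 nt, and with the length trend removed 2 were higher and 5 lower, with a median of -0.16. TRAF2, a K63 ligase of cytokine signalling, fell by 0.55 ± 0.09 on the log2 scale (adjusted p = 0.00191).

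Ligases and cofactors of the endoplasmic reticulum had 2 of 13 higher and 1 lower. For this and each list below, 21.3% of all tested genes were higher and 25.1% lower. RNF145, a sterol-responsive ligase, fell from 21.5 ± 0.537 to 13.4 ± 0.311 FPKM (-0.64 ± 0.07, adjusted p = 0.000238), and RNF170 and TMEM129 rose by 0.37 ± 0.07 and 0.38 ± 0.11. As TPM neither passed (adjusted p = 0.0544 and 0.161), and TMEM129 was also lost without control replicate 1 (adjusted p = 0.069), control replicate 2 (0.0697), 6p replicate 2 (0.0613) or 6p replicate 3 (0.0655). In the cullin and NEDD8 list 1 of 19 rose, which was RNF7, and 4 fell, among them CAND1, the cullin exchange factor, at -0.48 ± 0.09 and CUL4B at -0.44 ± 0.08. SUMO ligases and proteases gave 2 of 14 higher and 3 lower. Of these, PIAS1, RANBP2 and SENP1 changed by -0.64 ± 0.11, -0.59 ± 0.14 and -0.45 ± 0.13. The SENP1 call was lost without control replicate 1 (adjusted p = 0.0708), control replicate 2 (0.0744) or 6p replicate 1 (0.0528). With the length trend removed CAND1 changed by -0.25 and RANBP2 by -0.34, both past the threshold. Of the RBR and HECT ligases that UBE2L3 and other E2s serve, 3 of 31 rose and 9 fell. These genes are long too (median 6350 nt), and with the length trend removed 8 were higher and 10 lower, with the median going from -0.05 to 0.08. All 3 risers as deposited are RBR ligases: RBCK1, a part of the linear chain complex, rose from 24.2 ± 1.67 to 41.0 ± 2.98 FPKM (0.74 ± 0.08, adjusted p = 0.00038), RNF19B rose by 0.56 ± 0.07 and RNF14 by 0.50 ± 0.08. In the CTLH complex, the ligase of UBE2H, 3 of 11 rose and 3 fell. YPEL5 rose from 12.5 ± 0.471 to 21.9 ± 1.71 FPKM (0.77 ± 0.08, adjusted p = 0.000246), and the catalytic subunit MAEA fell from 86.7 ± 3.03 to 65.4 ± 1.45 FPKM (-0.40 ± 0.07, adjusted p = 0.0025).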

How the data were processed

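The table the authors deposited holds FPKM for 16070 genes in 6 libraries made with a stranded mRNA kit, per the labels' protocols. HISAT2, HTSeq, Cufflinks, Trimmomatic and GRCh38 are named, per the submitters' processing notes; roles, versions and annotation are details not given in the sources used here. All sample columns were used (0 unused). Python 3.11.15, numpy 2.4.6 and pandas 2.3.3 recovered totals, gene lengths and fragments, because low values come in steps worth 1 fragment (whole within 0.001 for 100% of 11745 tested genes). limma 3.58.1 (R 4.3.3; trend, robust; two-sided) compared log2(FPKM + 1) for genes whose mean reached 0.5 FPKM, and p was adjusted by Benjamini-Hochberg over all of these (threshold 0.05). Only the limma fit was tried on simulated counts, drawn with few changed genes and no shift with gene length between libraries. The log2(FPKM + 1) scale understates changes of low genes.

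Members and lists were chosen with earlier results of these data known. Values in every library are given for changed members with a log2 fold change of at least 0.3 in either direction, and for chain partners, the UBE2D paralogs and the ubiquitin-like E2s. Values per library of UBE2C, UBE2S and UBE2E1 were added after their values were seen. Of each list, genes are named from the 4 changed ones with the smallest adjusted p, with known partners (ISG15, UBA7, FANCL, RBX1, CUL5) added afterwards. Some genes enter the counts but are not reported here by name. The alternatives were pseudocounts of 0.1 and 0.01, no filter and minimums of 1 and 5 FPKM, TPM, scaling by quantiles, upper quartile or median, taking out a loess trend with gene length (span 0.5) per library, plain eBayes, a replicate block, voom on recovered fragments, and leaving out each library in turn or both that stood apart by length.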

Additional observations from a re-analysis of the deposited data

How the results depend on the processing

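Of 618 values of tested E2 genes over 20 alternatives, 550 kept their direction and side of the threshold or stayed without a call, 43 lost the call, 25 gained one and 0 reversed with a call. Leaving out 1 library gave 6 to 16 changed E2 genes (3 to 7 higher, 3 to 9 lower, against 14, 8 and 6), a median E2 log2 fold change of 0.022 to 0.0591, 29 to 75 changed genes in the pathway lists (67 with all libraries), and 3517 to 6084 changed genes over the whole table (1793 to 3378 lower). Each of these counts was lowest without control replicate 2, with E2 higher calls equally low without 6p replicate 3. Without control replicate 1 there were 8 changed E2 genes (4 higher) and 32 pathway genes, and without 6p replicate 3 there were 8 (3 higher) and 43. The lowest E2 median came without 6p replicate 1. Without both libraries that stood apart by length, 21 E2 genes changed, 11 higher and 10 lower, with a median of 0.0345, and 105 genes of the pathway lists changed. That is 67.7% of the E2 genes, against 65.9% of all tested genes under the same setting. With all libraries these were 45.2% and 46.5%. This setting leaves 2 libraries per group, after removal of those that deviated in these same data. Rescaling to TPM gave 3 higher and 10 lower E2 genes, a median of -0.1182 and 1526 higher and 3991 lower genes over the table. The E2 median was 0.12 with median recentring and 0.087 with upper-quartile scaling. UBB, not called as deposited, passed as lower with quantile normalization (-0.3134) and with the length trend removed (-0.1712), against 0.02 as deposited. With the length trend removed, RNF5 passed as lower (-0.1596), ARIH1 as higher (0.2422) and RNF217 as higher (0.2087), each with the opposite sign as deposited. Same-numbered libraries did not all deviate together (correlation of deviations from the group means -0.569, 0.326 and -0.417 for numbers 1 to 3). Of the controls only replicate 2 correlated best with its own number (0.326), and none of the 6p libraries did. For 6p replicates 2 and 3 the best match was control replicate 1 (0.55 and 0.354). The highest correlation, 0.634, was between the length-shifted libraries, control replicate 3 and 6p replicate 1. Such values cannot show whether same-numbered libraries shared a day or batch, which the labels do not state. With the replicate block 7 E2 genes changed (3 higher), 37 genes of the pathway lists changed and 1920 genes fell over the table. The block ended the calls of UBE2D2 (adjusted p = 0.101), UBE2E2 (0.0994), UBE2H (0.0882) and UBE2K (0.0643). Those of UBE2M (0.0759), UBE2O (0.0853) and UBE2Q1 (0.0841) ended too. Among named pathway genes, it ended those of UBA1 (0.0568), RPS27A (0.057), SUMO3 (0.0761) and SENP1 (0.063). The cause of these differences was not tested. At the recovered depth UBE2E1, with 28 to 63 fragments per library, had the fewest fragments of the tested members, and UBE2V1, UBE2L5 and UBE2U were too low to test.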
